A study of Homo sapiens with 15 samples.

Results

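The comparison described here set PEO1 cells exposed to 16 µM cisplatin against untreated PEO1 cells, with 3 libraries in each group and therefore 6 of the 15 libraries of the series. PEO1 is an established line of high-grade serous ovarian cancer that the labels call platinum sensitive, and the study exposed it for 5 h. Each library was made by Pt-exo-seq from genomic DNA and counted in 1 kb windows, and the counts of chromosomes 1 to 22 were summed over 6520 protein-coding gene bodies of at least 50 kb, 40 chromosome arms and 2897 bins of 1 Mb. The other 9 libraries came from PEO4, the resistant line from the same patient, untreated or at 16 or 32 µM, and entered the same fits, where they share the estimate of spread. The labels do not say whether replicates were separate cultures, so p-values measure the spread between these libraries, which may be technical.

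Cisplatin binds the N7 position of purines and mainly joins adjacent guanines on the same strand, so its adducts distort the helix and block polymerases and exonucleases. Pt-exo-seq uses that block: an exonuclease digests each sheared fragment until an adduct stops it, and what remains is sequenced. Adducts in transcribed strands are removed fastest, by transcription-coupled nucleotide excision repair. Fragments that escape digestion are also sequenced, so the untreated libraries hold the background of the method together with the copy number of the line. Because counts were scaled to the library, a change is a change in the share of reads that a region took, and the total amount of adducts is not measured by it.

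The untreated PEO1 libraries held 34891525, 33073916 and 31513341 counts and the treated ones 32484105, 35962875 and 39341677. The share of autosomal windows without a count was 16.7%, 21.1% and 23.7% in the untreated libraries and 29.1%, 20.1% and 14.9% in the treated ones. Treated replicate 1 thus had the highest share of empty windows of all 15 libraries, above untreated replicate 3 with its lower depth. The deepest library, treated replicate 3, had the lowest share of these 6. A 1 Mb bin held a median of about 13320 counts per library and a gene body about 1439. The fitted spread between libraries beyond counting error, as a coefficient of variation, was 7.14% for 1 Mb bins and 9.93% for gene bodies without GC correction.

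Without correction for GC content, the regions with the highest treated to untreated ratio were those rich in G and C, a contrast that rested on replicate 1 of each group. The log2 ratio of a library to the untreated mean changed with the GC content of 1 Mb bins by -0.18, 0.11 and 0.06 per 10 percentage points of GC in the untreated libraries, and by 0.40, -0.04 and -0.04 in treated replicates 1, 2 and 3. Treated replicate 1 was therefore the highest of the 6, untreated replicate 1 the lowest, and the other treated replicates lay between the untreated ones. The group means were -0.004 ± 0.156 (SD, n = 3) untreated and 0.11 ± 0.25 (SD, n = 3) treated, a difference of 0.11 with an exact two-sided permutation p of 0.7 (adjusted p 0.8 over 7 such measures). With 3 libraries against 3, the smallest p this test can give is 0.1. Leaving out treated replicate 1 turned the difference to -0.035, and leaving out untreated replicate 1 brought it to 0.022.

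**Figure D1:**
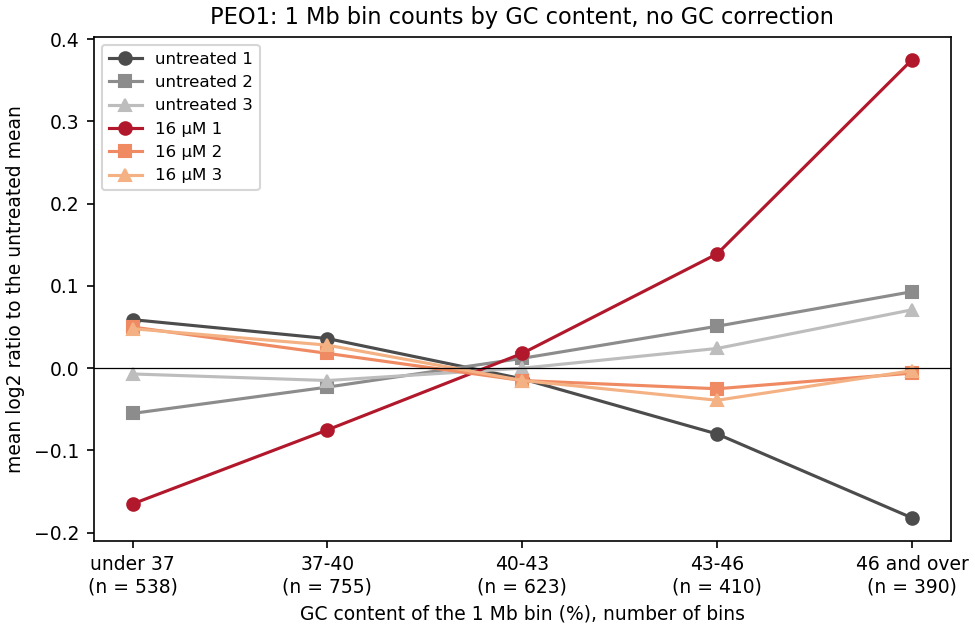
The y axis is the mean log2 ratio of each PEO1 library to the mean of the untreated libraries, and the x axis groups the 1 Mb bins by GC content (%), with the number of bins. At a GC content of 46% and over, treated replicate 1 stood at 0.38, treated replicates 2 and 3 at about 0, and untreated replicate 1 at -0.18.

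Across the 2716 tested bins, the fitted treated to untreated change correlated with GC content at r = 0.72. The correlation was 0.94 for treated replicate 1 alone, and -0.30 for both treated replicates 2 and 3. These bins share their libraries and are given as a description. Over bins, log2 ratios to the untreated mean spread by 0.193 (SD over bins) in treated replicate 1, and 0.059 and 0.058 in the others.

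The chromosome arms showed the same contrast between replicates. The short arm of chromosome 19 (chr19:1-24631782, GRCh37), which is dense in genes and has a GC content of 49.6%, had the highest fitted change, 0.15 (SE 0.14). Its log2 ratios to the untreated mean were -0.13, 0.08 and 0.05 in the untreated libraries and 0.35, 0.027 and 0.028 in the treated ones. Only treated replicate 1 stood above the untreated libraries there. The next arms were 22q at 0.10 (SE 0.11) and 17q at 0.086 (SE 0.086). The lowest were 4q at -0.032 (SE 0.066), 18q at -0.031 (SE 0.032) and 20p at -0.024 (SE 0.013). The gene-poor arm 4q read -0.16 in treated replicate 1, but 0.027 and 0.031 in treated replicates 2 and 3. None of the 40 arms passed an adjusted p of 0.05 in edgeR's quasi-likelihood test (0%), and none had an unadjusted p below 0.05 (0%). DESeq2 and limma also called none, with 2 and 0 arms at an unadjusted p below 0.05. Without treated replicate 1, 4q turned to 0.029 and 22q to -0.009.

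The GC correction took out the GC trend of each library, also any trend that the treated libraries shared. After it, the fitted changes of the arms lay between -0.025 and 0.039. Among them, 1 arm of 40 passed (2.5%). This was 20p (chr20:1-26319569, GRCh37), which fell by 0.022 on the log2 scale (SE 0.005), a change of -1.54%, with an edgeR adjusted p of 0.0363. Its GC-corrected log2 ratios were 0.004, -0.005 and 0.001 untreated and -0.027, -0.022 and -0.019 treated, so all treated libraries lay below the untreated ones. The same held for 8p, 10p, 18q and 20q. In 7p, 14q, 17q and 21q, all treated libraries lay above the untreated ones. The margin was small in 14q, with 0.004 in the highest untreated and 0.005 in the lowest treated library, and in 21q, with 0.006 and 0.007. Full separation of 3 libraries against 3 corresponds to an exact permutation p of 0.1 for a single arm, before allowing for 40 arms. The long arm 20q gave 0.004, 0.002 and -0.006 untreated against -0.029, -0.020 and -0.026 treated, with an edgeR adjusted p of 0.0576. The highest arm, 17q, read -0.018, 0.009 and 0.009 untreated and 0.063, 0.022 and 0.030 treated, a change of 0.039 (SE 0.016, edgeR adjusted p 0.218). The next arms in each direction were 10p, which read -0.016 (SE 0.009), 7p, which read 0.016 (SE 0.006), and 21p, a short arm made up mostly of unsequenced bases, which read 0.029 (SE 0.044) with groups that overlapped. The uncorrected extremes 4q, 22q and 19p came to -0.001, 0.000 and 0.008. In all, 7 of 40 arms had an unadjusted p below 0.05 (17.5%), 4 of them higher and 3 lower. The trend was fitted on only 40 points a library, and how far this lowers these p-values was not tested. With the GC trend taken from the 1 kb windows instead, 20p stood at -0.018 with an edgeR adjusted p of 0.693, and 20q at -0.002. DESeq2 called 0 arms and limma 1. The call was kept without untreated replicate 2 and was lost, leaving 0 arms, without any 1 of the other 5 PEO1 libraries.

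**Figure D2:**
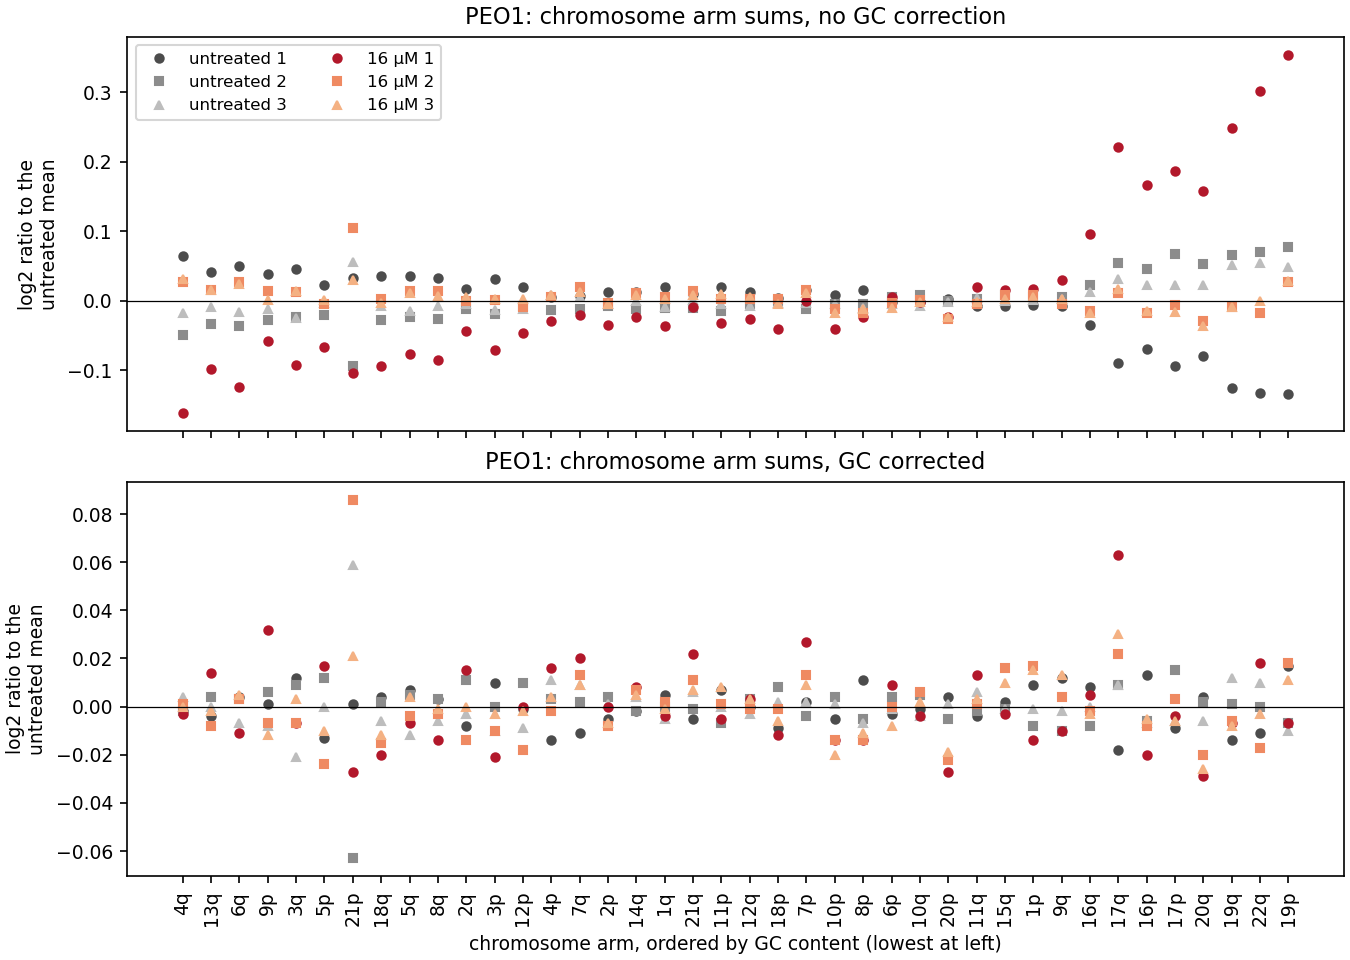
Each point is 1 PEO1 library at 1 of the 40 chromosome arms, with arms ordered by GC content from left to right and the y axis giving the log2 ratio to the untreated mean before (top) and after (bottom) GC correction, on different scales. At the top, treated replicate 1 runs from -0.16 at 4q to 0.35 at 19p. At the bottom, 20p and 20q have all treated libraries below all untreated ones, as do 8p, 10p and 18q. In 7p, 14q, 17q and 21q all treated libraries lie above all untreated ones, by a small margin in 14q and 21q.

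At the scale of 1 Mb bins, 2716 of 2897 bins held enough counts to be tested. Without GC correction no bin passed an adjusted p of 0.05 in edgeR (0%), nor in DESeq2 or limma, and 22 bins had an unadjusted p below 0.05 (0.81%), 11 higher and 11 lower. DESeq2 gave 61 and limma 25 such bins. With the GC trend removed, the spread between libraries came down from 7.14% to 2.23%, and 6 bins passed in edgeR (0.221%), 5 higher and 1 lower. An unadjusted p below 0.05 was reached by 341 bins (12.6%), of which 185 were higher and 156 lower. Treated and untreated libraries did not overlap in 131 bins without the correction (4.82%) and in 437 with it (16.1%).

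The bin with the smallest p among those higher without correction was chr5:140000001-141000000 (GRCh37), which holds the clustered protocadherin genes of the alpha, beta and gamma families, cell surface adhesion molecules of neurons. Its counterpart among the lower bins was chr3:16000001-17000000, which holds RFTN1, a lipid raft protein, and the meiotic RNA-binding gene DAZL. A stretch of 200 bases from each is shown because adjacent guanines are the main target of cisplatin, and each was taken where GC content was nearest to that of its bin. Capitals mark runs of at least 2 G or at least 2 C, the latter being adjacent guanines on the other strand. Both are on the plus strand of GRCh37 with a GC content of 41.5% and overlap no annotated exon. The first, at chr5:140488601-140488800, lies in no protein-coding gene and holds 16 GG or CC steps. The second, at chr3:16494201-16494400, lies in an intron of RFTN1 and holds 18.
Protocadherin bin, chr5: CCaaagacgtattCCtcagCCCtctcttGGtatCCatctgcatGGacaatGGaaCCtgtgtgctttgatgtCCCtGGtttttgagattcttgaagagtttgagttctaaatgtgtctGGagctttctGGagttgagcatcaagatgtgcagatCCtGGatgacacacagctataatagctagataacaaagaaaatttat
RFTN1 bin, chr3: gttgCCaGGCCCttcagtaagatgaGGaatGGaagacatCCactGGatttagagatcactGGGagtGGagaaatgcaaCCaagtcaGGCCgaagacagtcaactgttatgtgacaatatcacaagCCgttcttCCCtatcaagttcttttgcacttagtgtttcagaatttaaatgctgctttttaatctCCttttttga

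The protocadherin bin was higher in all treated libraries with and without the correction. Its GC-corrected CPM values, counts scaled to the size of the library, were 401, 396 and 407 untreated and 455, 427 and 430 treated, and the groups did not overlap. The named bins were chosen for the smallest p in these libraries, so a lack of overlap follows in part from that choice. The protocadherin bin rose by 0.12 on the log2 scale (SE 0.03), or 8.97%, with an edgeR adjusted p of 0.0301. Without correction the change was also 0.12 (SE 0.04), with an unadjusted edgeR p of 0.00771 and an adjusted p of 1. Within the bin, the gene body of PCDHGA1, the first of the gamma genes, read 0.18 (SE 0.06, unadjusted edgeR p 0.00624) and that of PCDHA1 of the alpha genes 0.025 (SE 0.057), a difference that was not tested. The genes of each of these clusters overlap and so share reads, which leaves values of single members uncertain.

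In chr17:59000001-60000000, GC-corrected CPM were 397, 419 and 403 untreated and 450, 442 and 431 treated. The bin rose by 0.12 (SE 0.03, 8.51%, edgeR adjusted p 0.0341). Every treated library lay above every untreated one, which follows in part from the choice of the bin by its p. It holds BRIP1, a helicase that partners BRCA1 in the repair of DNA crosslinks, the T-box developmental genes TBX2 and TBX4, INTS2 of the Integrator complex, and part of BCAS3. Both the BCAS3 gene body, at 0.10 (SE 0.03, unadjusted edgeR p 0.00224), and that of BRIP1, at 0.10 (SE 0.05, unadjusted edgeR p 0.0641), pointed the same way, but neither passed adjustment (0.3 and 0.63). Reads of BRIP1, and part of those of BCAS3, are also reads of the bin, so their direction is no separate evidence.

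CPM values in chr3:196000001-197000000 were 661, 681 and 698 untreated and 752, 725 and 734 treated after correction. It rose by 0.12 (SE 0.025, 8.44%, edgeR adjusted p 0.0301). The bin contains PAK2, a kinase of the cytoskeleton, RNF168, a ubiquitin ligase that acts at DNA breaks, and part of the scaffold gene DLG1. PAK2 alone read 0.23 (SE 0.07, unadjusted edgeR p 0.00202), DLG1 0.13 (SE 0.04, unadjusted edgeR p 0.00352), and UBXN7 in the same bin -0.04 (SE 0.07). None of these passed adjustment, and their reads, for DLG1 in part, are also reads of the bin.

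The remaining bins that rose were richer in GC, at 46.8% each. In chr6:34000001-35000000, with HMGA1, a chromatin architectural protein, and SPDEF, an epithelial transcription factor, GC-corrected CPM were 212, 211 and 210 untreated and 226, 229 and 235 treated, a rise of 0.13 (SE 0.03, 9.11%, edgeR adjusted p 0.0301). In chr19:12000001-13000000, where a cluster of zinc finger genes including ZNF44 and ZNF136 adjoins JUNB and KLF1, they were 544, 502 and 512 untreated and 559, 557 and 570 treated, a rise of 0.11 (SE 0.03, 8.17%, edgeR adjusted p 0.0489). Here untreated replicate 1 lay only just below the treated libraries. Before correction, treated replicate 1 stood at 0.35 and 0.36 in these bins, and treated replicates 2 and 3 between 0.08 and 0.12.

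Of the 6 bins, chr4:4000001-5000000 alone fell. It holds MSX1, a homeobox gene, and STX18, a membrane fusion protein of the endoplasmic reticulum. Corrected CPM were 493, 488 and 483 untreated and 447, 461 and 454 treated, a fall of 0.10 (SE 0.02, edgeR adjusted p 0.0301). Without correction the libraries overlapped, since treated replicate 1 read 0.08 there and untreated replicate 1 read -0.10.

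The other bins named by the same rule did not pass in the edgeR fit. The RFTN1 bin had 418, 423 and 438 corrected CPM untreated and 390, 403 and 397 treated, a value of -0.11 (SE 0.03, edgeR adjusted p 0.064). With a straight line on GC it read -0.13 and passed (edgeR adjusted p 0.0121). The bin chr20:55000001-56000000, with the bone morphogenetic protein gene BMP7 and the transcription factor gene TFAP2C, read -0.09 (SE 0.02, edgeR adjusted p 0.0773), and its treated libraries ranged from -0.10 to -0.08. It passed in DESeq2 (adjusted p 0.00487) and in edgeR without untreated replicate 3 (adjusted p 0.0445), and with the GC trend from 1 kb windows it read -0.033 (edgeR adjusted p 0.726). The bin chr5:174000001-175000000, with MSX2 and the dopamine receptor gene DRD1, read -0.10 (SE 0.03), and chr11:79000001-80000000, with part of the synaptic adhesion gene TENM4, -0.09 (SE 0.02). The incomplete last bin of chromosome 21 (chr21:48000001-48129895, with S100B and PRMT2) read 0.26 (SE 0.11), with groups that overlapped.

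**Figure D3:**
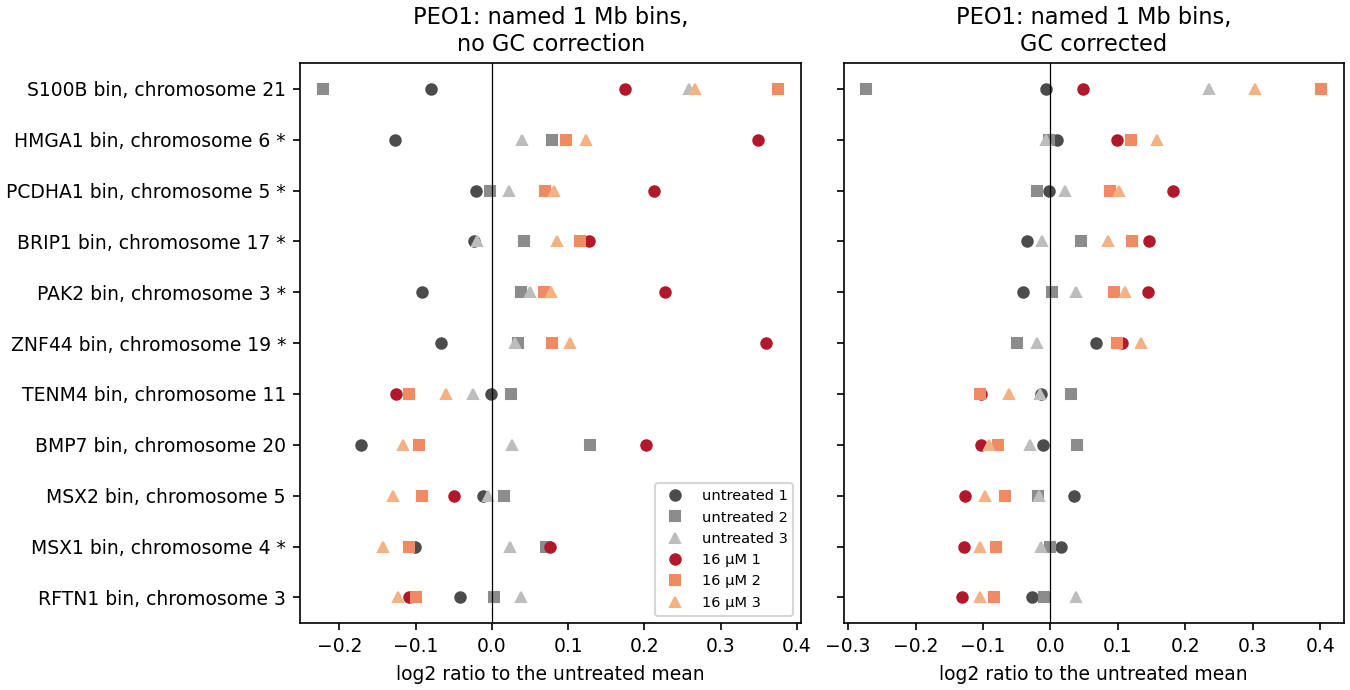
Each row is 1 of the 11 named 1 Mb bins, labelled by 1 of its genes, and each point is 1 PEO1 library, with the log2 ratio to the untreated mean on the x axis, before (left) and after (right) GC correction. Asterisks mark the 6 bins with an edgeR adjusted p below 0.05 after correction, and for these the treated libraries lie between 0.09 and 0.18 in the higher bins and between -0.13 and -0.08 in the MSX1 bin. The bins were chosen by p in these same libraries.

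The 6 calls depended on how GC was corrected and on single libraries. With the GC trend taken from 1 kb windows, no bin passed in edgeR (smallest adjusted p 0.41), 264 had an unadjusted p below 0.05 (229 higher, 35 lower), and the median of all bins shifted to 0.014. The protocadherin bin then read 0.11 and the MSX1 bin -0.07. Calls numbered 0 without treated replicate 1, 0 without untreated replicate 2, 1 without untreated replicate 1 and 10 without untreated replicate 3. The values themselves moved less, and without treated replicate 1 the protocadherin bin read 0.095 and the BRIP1 bin 0.10.

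Which replicates carried the change was followed library by library. Without GC correction, the log2 ratios of treated replicate 1 over the 2716 bins correlated with those of treated replicates 2 and 3 at r = -0.14 and -0.13, and replicates 2 and 3 with each other at 0.60. After correction the values were 0.33, 0.38 and 0.43. All these ratios share the untreated mean, which by itself gives a positive correlation. A check without shared libraries left out replicate 1, 2 or 3 of both groups in turn and read the bins chosen in the other 4 libraries (unadjusted p below 0.05) in the pair left out. Without correction, 14.5%, 48.3% and 50% of the chosen bins kept their sign there, against 17.9%, 26.3% and 31.6% of all bins. With correction 62.6% (159 of 254), 66.0% (186 of 282) and 63.6% (196 of 308) kept it, against 54.3%, 56.0% and 54.9% of all bins, with a median signed change of 0.018, 0.025 and 0.022. With correction the share lay above that of all bins in every pair left out, a difference that was not tested. Without it, most of all bins took the opposite sign in every pair left out. Among chosen bins this was clearest in the pair of replicate 1. The pairs were formed by replicate number alone. The splits reuse each other's libraries, and bins of the same libraries are not replicates, so the pairs left out are not independent checks.

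In edgeR no gene body passed. Of 6520, 6483 were tested, and without GC correction none passed an adjusted p of 0.05 in edgeR (0%), DESeq2 or limma. Unadjusted p-values below 0.05 were found for 193 (2.98%), 110 higher (1.7%) and 83 lower (1.28%), with DESeq2 giving 233 and limma 185. After GC correction none passed in edgeR (0%, smallest adjusted p 0.157) or limma, 5 passed in DESeq2 and 4 in edgeR with a straight line on GC, and 536 had an unadjusted edgeR p below 0.05 (8.27%), 294 higher (4.53%) and 242 lower (3.73%). DESeq2 gave 614 and limma 547. Of the 5 genes that passed in DESeq2, 4 are described below, RPS10-NUDT3, CDC42BPB and FAM186A with higher values and DNAH8 with lower ones. Agreement between the treated libraries was again highest between replicates 2 and 3. Log2 ratios of the 6483 gene bodies correlated at r = 0.06, 0.10 and 0.42 between treated replicates 1 and 2, 1 and 3, and 2 and 3 without correction, and at 0.27, 0.30 and 0.35 with it, all sharing the untreated mean. Corrected gene bodies chosen at an unadjusted p below 0.05 without replicate 1, 2 or 3 kept their sign in the pair left out in 56.7%, 57.2% and 56.1% of cases, against 52.9%, 53.4% and 51.8% of all gene bodies. The gene bodies named below are those with the smallest p in each direction, and none of them passed edgeR's adjustment. That their groups do not overlap follows in part from this choice. The share of all gene bodies without overlap was not counted.

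Among those with higher values, the readthrough gene RPS10-NUDT3 (chr6:34252664-34393848) lies in the HMGA1 bin. Its corrected CPM were 61.9, 65.9 and 63.4 untreated and 80.6, 79.8 and 76.7 treated, a difference of 0.31 (SE 0.08, edgeR adjusted p 0.157), and the groups did not overlap. NUDT3, a diphosphoinositol phosphate hydrolase whose gene shares most of this stretch, read 0.25 (SE 0.09), while ILRUN in the same bin read -0.01 (SE 0.09). PKD2L2, a member of the polycystin channel family, had 26.9, 27.1 and 21.97 untreated and 39.9, 32.6 and 33.6 treated, a difference of 0.48 (SE 0.12, edgeR adjusted p 0.157). CDC42BPB, a kinase downstream of CDC42, read 0.28 (SE 0.07), the adhesion receptor ADGRL1 0.32 (SE 0.08), the retromer subunit VPS26A 0.40 (SE 0.11) and FAM186A 0.33 (SE 0.09). ADGRL1 showed how much treated replicate 1 weighed before correction: its log2 ratios there were 1.08, 0.26 and 0.36, and after correction 0.43, 0.24 and 0.29. TTC34, first in the fit without correction at 0.71 (SE 0.16, unadjusted edgeR p 0.000318), came down to 0.33 (SE 0.13) with it. ADPRHL1 read 0.67 and 0.44, and MTTP, the lipid transfer protein of lipoprotein assembly, 0.43 and 0.46 in the 2 fits.

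Among those with lower values, BEND6, a transcriptional corepressor, had 39.4, 44.8 and 43.3 corrected CPM untreated and 33.9, 28.9 and 33.3 treated, a difference of -0.41 (SE 0.10, edgeR adjusted p 0.157). The axonemal dynein gene DNAH8 had 173, 175 and 162 untreated and 148, 145 and 148 treated, a difference of -0.21 (SE 0.05, edgeR adjusted p 0.157). BCL2, the inhibitor of apoptosis at the mitochondrion (chr18:60790579-60987361), had 218, 206 and 208 untreated and 182, 189 and 187 treated, or -0.18 (SE 0.06, edgeR adjusted p 0.3). The groups did not overlap for any of these genes, which were chosen for the smallest p. The histone deubiquitinase gene MYSM1 read -0.32 (SE 0.10), TENM4 -0.12 (SE 0.03), the Wnt pathway agonist RSPO2 -0.17 (SE 0.04), PRSS51 -0.32 (SE 0.10), and the genes listed only as ENSG00000284686 and ENSG00000285791 -0.17 (SE 0.05) and -0.27 (SE 0.07). In each of these, all treated libraries lay below all untreated ones after correction. For TENM4 this was not so before it, where treated replicate 1 read -0.01.

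**Figure D4:**
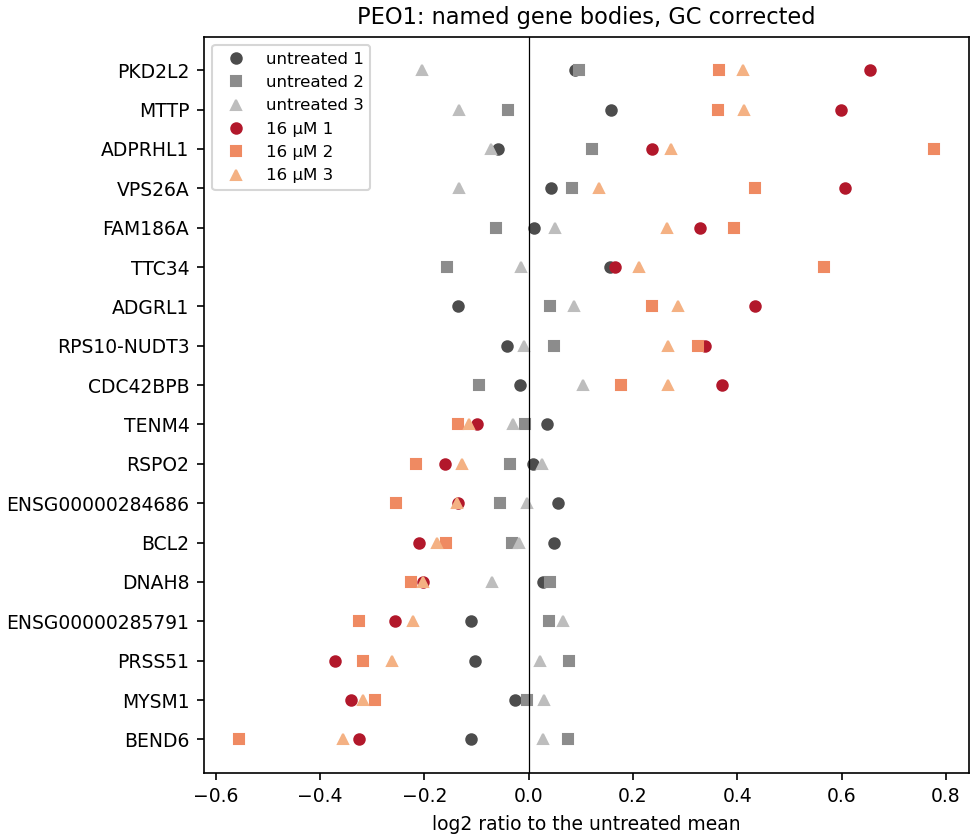
Each row is 1 of the 18 named gene bodies and each point 1 PEO1 library, with the GC-corrected log2 ratio to the untreated mean on the x axis. Treated libraries lie at or above 0.13 in the higher genes and at or below -0.10 in the lower ones, and none of the genes passed an adjusted p of 0.05 in edgeR.

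The gene lists are described by their members with an unadjusted edgeR p below 0.05, which over all gene bodies made up 2.98% without and 8.27% with GC correction, and by their medians, which over all gene bodies were 0.001 and -0.002. Of 28 tested genes of DNA repair and the damage response, none had an unadjusted p below 0.05 without correction and 2 were higher with it, CHEK1, the checkpoint kinase, at 0.23 (SE 0.10) and FANCC of the Fanconi anaemia core complex at 0.16 (SE 0.07). The list median was 0.019 without and 0.021 with correction. CHEK1 read 0.14, -0.16 and 0.004 untreated and 0.022, 0.30 and 0.34 treated, so that treated replicate 1 lay among the untreated libraries. BRCA2, central to homologous recombination, read 0.19 (SE 0.11), and POLQ, the polymerase of end joining at microhomologies, -0.15 (SE 0.08).

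Of 11 genes of platinum transport and detoxification, 1 had an unadjusted p below 0.05 in each fit, and the corrected values ran from -0.22 to -0.008, with a median of -0.09. GCLC, the rate-limiting enzyme of glutathione synthesis, read -0.18 (SE 0.08, unadjusted edgeR p 0.0288), with treated replicates at -0.23, -0.04 and -0.29 and untreated ones from -0.06 to 0.08, so that the groups overlapped. ATP7B, a copper pump that also handles cisplatin, read -0.22 (SE 0.13) and the organic cation transporter SLC22A2 -0.20 (SE 0.11). The list medians of the corrected ratios were -0.17, -0.04 and -0.07 in treated replicates 1, 2 and 3. Of 8 genes of the p53 family and apoptosis, BCL2 alone had an unadjusted p below 0.05, in both fits, and the median was -0.05 with correction. CASP8, the initiator caspase of death receptors, read -0.09 (SE 0.07). TP73, which has a GC content of 59.5%, read 0.44 (SE 0.23) without correction and 0.005 (SE 0.09) with it, its treated replicates standing at 0.99, -0.06 and 0.17 before correction.

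None of 19 epithelial and ovarian carcinoma genes reached an unadjusted p below 0.05 in either fit, with a corrected median of -0.010 and values for ITGB1, MYO6 and LAMA3 of -0.10 (SE 0.07), -0.08 (SE 0.07) and -0.055 (SE 0.048). Of 22 neuronal adhesion and synapse genes, long and mostly poor in GC, none reached it without correction and 2 were lower with it, CNTNAP5 at -0.09 (SE 0.03, unadjusted edgeR p 0.00652) and OPCML at -0.065 (SE 0.030). GRIN2A, a glutamate receptor subunit, read -0.05 (SE 0.04). Their median moved from -0.04 to -0.02 with the correction. Before it, the list read -0.15 in treated replicate 1, and -0.006 and 0.028 in the others. Of 19 very long genes at common fragile sites, none reached it without correction and 2 were lower with it, AUTS2 at -0.08 (SE 0.03, unadjusted edgeR p 0.00567) and CSMD1 at -0.07 (SE 0.03), while MACROD2 read -0.03 (SE 0.03). Their list median went from -0.03 to -0.006. No member of any list passed adjustment over all gene bodies in edgeR, and 4.53% and 3.73% of all gene bodies were higher or lower at the same unadjusted limit.

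Summed over the autosomes, the share of counts in gene bodies differed little between the groups. The GC-corrected log2 ratio of counts inside to counts outside gene bodies of at least 50 kb was -0.537, -0.532 and -0.532 untreated and -0.525, -0.521 and -0.527 treated, a difference of 0.010, and the groups did not overlap. Its exact two-sided permutation p was 0.1, the smallest that 3 against 3 can give (adjusted p 0.233). Without correction the difference was 0.007 (exact permutation p 0.2), and with genes of at least 100 kb it was -0.004 (exact permutation p 0.8), or 0.007 when treated replicate 1 was left out.

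Bins within 5 Mb of a chromosome end stood 0.29 above the rest in treated replicate 1, at -0.005 and 0.0004 in treated replicates 2 and 3, and at -0.13, 0.05 and 0.06 in the untreated libraries. The group difference was 0.098 (exact permutation p 0.6). It was 0.0013 without treated replicate 1 and 0.035 without untreated replicate 1. With GC correction it was -0.0035, with all libraries between -0.011 and 0.012 (exact permutation p 0.8).

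For the density of adjacent guanines and of genes, all 3 treated replicates stood on the same side of the untreated ones. At fixed GC content, the slope of the log2 ratio on the share of GG or CC steps, per percentage point, was -0.005, 0.017 and -0.012 untreated and 0.027, 0.023 and 0.021 treated. The groups did not overlap, and the difference was 0.023 (exact permutation p 0.1, the smallest possible, adjusted p 0.233). In bins of 100 kb the difference came down to 0.008, with values of 0.024, -0.009 and 0.013 in the treated libraries that overlapped the untreated ones, and it was 0.0006 without treated replicate 1. The slope on gene starts, also at fixed GC content and per 10 protein-coding genes starting in a GC-corrected 1 Mb bin, was 0.001, 0.002 and -0.003 untreated and 0.013, 0.011 and 0.012 treated. This difference of 0.012 (exact permutation p 0.1, the smallest possible, adjusted p 0.233) did not overlap between groups, read 0.011 without treated replicate 1, and was 0.012 with the GC trend from 1 kb windows. The gene-start measure was added after the data were seen, which its p and adjusted p do not take into account.

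**Figure D5:**
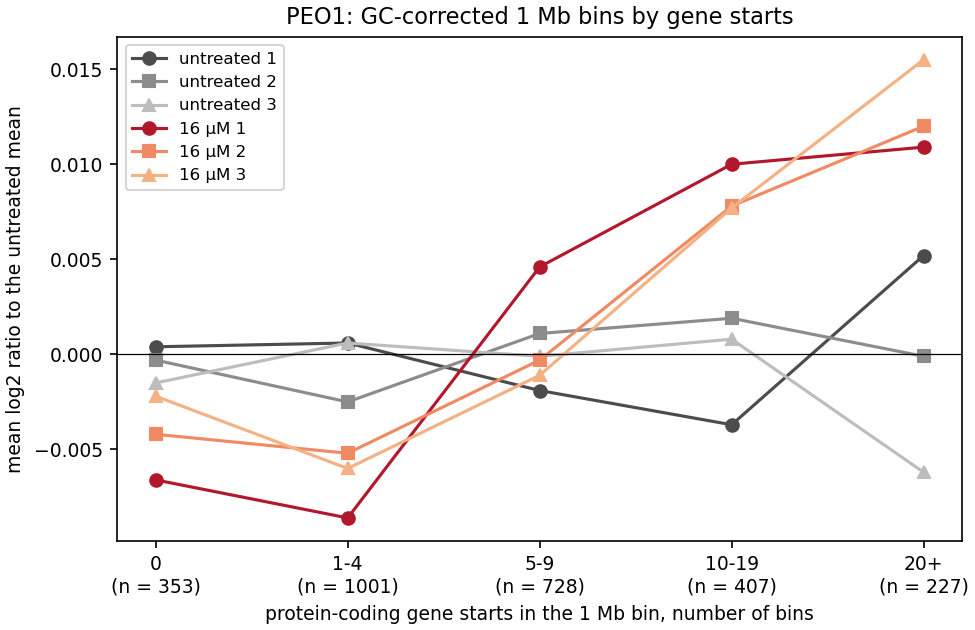
The y axis is the mean GC-corrected log2 ratio of each PEO1 library to the untreated mean and the x axis groups the 1 Mb bins by the number of protein-coding genes that start in them. In the 227 bins with 20 or more gene starts the treated libraries stand between 0.011 and 0.016 and the untreated ones between -0.006 and 0.005.

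The 353 bins without a gene start read -0.007, -0.004 and -0.002 in treated replicates 1, 2 and 3 after correction, and the 407 bins with 10 to 19 gene starts 0.010, 0.008 and 0.008. These class means, unlike the slope, are not taken at fixed GC content and moved with the correction. The mean fitted change was 0.013 in the bins with 20 or more gene starts and 0.009 in those with 10 to 19, against 0.047 and 0.029 with the GC trend from 1 kb windows. The 185 bins that were higher at an unadjusted p below 0.05 held a mean of 9.66 gene starts and the 156 lower bins 4.69, against 7.07 over all tested bins. The medians were 7 and 3, against 5. The bins were chosen in the same libraries that gave the slope on gene starts, so these means and medians are no separate evidence. No gene start was held by 9.73% of the higher and 13.5% of the lower bins, against 13% of all. The median GC contents of the higher and lower bins were 41.6% and 41.8%, against 40.2% over all tested bins. These bins were chosen after the GC trend of each library had been taken out, so a similar GC content follows in part from the correction.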

How the data were processed

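As described by the authors, single-end Pt-exo-seq reads were trimmed with BBDuk, aligned to hg19 with bowtie2, filtered against the ENCODE blacklist and deduplicated. The deposited values were raw read counts in windows of 1000 bp stepped by 900 bp, so neighbouring windows overlap. The last window of the 22 autosomes ends at the GRCh37 length. No molecular identifiers are mentioned. Windows were summed by midpoint over GENCODE 44 gene bodies (lifted to GRCh37), arms split at the last N run of at least 3 Mb, and 1 Mb bins. All 15 libraries were fitted in 5 groups with edgeR 4.0.16 (quasi-likelihood test, TMM factors, Benjamini-Hochberg adjustment over all features with mean counts of at least 100, 10000 and 500), with dispersions kept at or above 0.00011, below which edgeR's deviance is approximate. GC correction added, per library, a natural spline (4 df) on feature GC as an offset. It takes out any GC trend of a library, also one that the treated libraries share. DESeq2 1.42.0, limma 3.58.1 (prior count 2) and other settings were alternatives. Fits of gene bodies and 1 Mb bins, but not of arms, were tested on simulated data. Single values per library were compared by exact permutation.

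Named features were the 6 gene bodies and 3 bins of smallest p per direction and fit, all bins past adjustment, the 3 highest and lowest arms, and 3 genes per list, besides list members below an unadjusted p of 0.05. Genes inside bins were named after their values were seen. Members and lists were chosen with earlier results of these data known. The gene-start measure and the GC trend from 1 kb windows were added after seeing the data.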

Additional observations from a re-analysis of the deposited data

How the results depend on the processing

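With 3 libraries a group, 1 library can decide a call, and at a median of 1439 counts gene bodies carry more counting error than 1 Mb bins. Numbers of GC-corrected calls moved as follows. For 1 Mb bins (6), DESeq2 gave 41, a straight line on GC 10, and the GC trend from 1 kb windows, chosen after seeing the data, 0. Leaving out 1 library gave 0 to 10. For arms (1), DESeq2 gave 0, the PEO1 libraries alone 0, the straight line 2 and the window trend 0. Leaving out 1 library gave 0 to 1, the call remaining only without untreated replicate 2. For gene bodies (0), DESeq2 gave 5 and the straight line 4. Without correction, no setting gave another number. The cause of these moves was not tested.

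Labels of treated and untreated libraries share replicate numbers, which the main fits did not use as a block because the study's methods describe none. Deviations of same-numbered libraries over uncorrected bins correlated at -0.90, -0.74 and -0.56, and over GC-corrected bins at -0.13, -0.016 and 0.005. With the replicate block, called bins went from 6 to 0 and called arms from 1 to 0, and the GC slope was 0.1113 (exact permutation of signs, p = 1).

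Direction turned in 3 summary values: the GC slope read -0.0354 without treated replicate 1 (leaving out 1 library gave -0.0354 to 0.1847), the GC-corrected chromosome ends 0.0027 without untreated replicate 3 (range -0.0089 to 0.0027) and 0.0017 with 2 Mb ends, and the gene body share -0.0039 with genes of at least 100 kb. Of 50 named values, each a feature in 1 fit, 4 turned: 4q to 0.002 without untreated replicate 1 and 0.029 without treated replicate 1 (range -0.064 to 0.029), 18q to 0.000 (range -0.048 to 0.000) and 22q to -0.009 (range -0.009 to 0.159) without treated replicate 1, and 21p to -0.001 without replicate 2 of either group (range -0.001 to 0.059).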

Other observations

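PEO4, the resistant line, was fitted in the same model. None of the differences between the PEO4 and PEO1 responses passed adjustment for the bins, arms and gene bodies of smallest p (edgeR, GC corrected), and the smallest adjusted p was 0.0712, for the HMGA1 bin at 16 µM, where PEO4 read -0.037. These features were chosen in the same PEO1 libraries that enter the differences, so the choice can enlarge them. The protocadherin bin read 0.034 in PEO4 at 16 µM and 0.095 at 32 µM, the BRIP1 bin -0.001 and 0.024, and the MSX1 bin 0.022 and -0.033. Over 2716 bins, the GC-corrected changes of PEO1 correlated with those of PEO4 at r = -0.13 for 16 µM and 0.04 for 32 µM, where the libraries are not shared; without correction r was -0.70 and -0.56.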
